A study of Mus musculus with 11 samples.

Results

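The comparison described here is that of female mice with collagen antibody-induced arthritis (CAIA) against female mice given vehicle. It uses the 6 libraries whose column names in the count table begin with the letter f, 3 from CAIA and 3 from control mice, out of 11 libraries in 4 groups of sex and treatment. All were made from total RNA of dissected lateral habenula of BALB/c mice aged 3 months. CAIA mice received an intraperitoneal cocktail of 5 monoclonal antibodies to type II collagen at 50 mg/kg and, 3 days later, lipopolysaccharide (LPS) at 1 mg/kg, while controls received vehicle only. The effects of the antibodies, of LPS and of the joint disease therefore cannot be told apart. The sources used here do not give the time from LPS to dissection, nor whether each library came from 1 animal, and p-values cover only how these libraries vary, which may be technical.

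The lateral habenula is a small, mostly glutamatergic nucleus of the epithalamus that signals aversive events and disappointment to midbrain dopamine and serotonin neurons, and it is studied widely in models of depression. It lies beside the medial habenula, above the thalamus and next to the third ventricle. Its borders are the choroid plexus, an epithelium that secretes cerebrospinal fluid, the meninges and, behind it, the pineal gland. In antibody-induced arthritis, antibodies bind joint cartilage and LPS amplifies the inflammation, which also reaches the brain through cytokines, the blood vessels and adrenal glucocorticoids.

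The 6 libraries held 25839148 to 29565006 counts each, of which 3.09% to 3.59% were mitochondrial. Y-linked genes had 0 to 11 counts in them and 3567 to 4944 in male libraries. All 9 lateral habenula markers were tested, with mean levels of 7.5 to 7.8 log2 CPM (counts scaled to library size) per library. Neighbouring tissue was also present and uneven. Thalamus markers stood at 7.32, 7.79 and 6.91 log2 CPM in controls and 7.54, 7.34 and 7.63 in CAIA. Medial habenula markers stood at 5.70, 5.64 and 6.17 log2 CPM in controls and 5.92, 5.87 and 6.11 in CAIA. The serotonin-synthesis gene Tph1, which marks the pineal gland, had 3, 5 and 129 counts in control replicates 1, 2 and 3 and 78, 456 and 11 in CAIA replicates 1, 2 and 3. The hippocampus and cortex markers stood at 5.17, 3.40 and 4.46 log2 CPM in controls and 4.42, 3.95 and 3.61 in CAIA. Choroid plexus markers separated the groups, at 4.79, 5.22 and 5.62 log2 CPM in controls and 1.72, 1.899 and 1.67 in CAIA. In bulk tissue, fewer cells of a type and less RNA per cell cannot be told apart. Of the genes named here, 31 of 69 overlap another gene model, and since the strand setting of the counting is not given, reads of overlapping models cannot be told apart.

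The difference between the female groups was mostly a loss of transcripts. Of 18109 genes tested, 108 had an adjusted p below 0.05 by the quasi-likelihood test of edgeR (0.596%), here called passing, 105 of them lower in CAIA (0.58%) and 3 higher (0.0166%). All 108 had groups that did not overlap. Over all genes tested, 1098 (6.06%) had all CAIA libraries below all controls and 980 (5.41%) had them above, and the median log2 fold change was 0.00. Of the 105 that fell, 20 were among 22 choroid plexus markers, and the other 85 were not on that list. The 2 markers that did not pass, Calml4 and Otx2, were at -0.997 and -0.38 on the log2 scale, but Calml4 passed without control replicate 1 (adjusted p = 0.0317) and with DESeq2 (0.00107), and both passed in edgeR with no count filter (5.72e-06 and 0.0253). The choroid plexus gene Ttr, which encodes the thyroid hormone carrier transthyretin, went from 1468, 1991 and 3263 CPM in control replicates 1, 2 and 3 to 29.1, 27.0 and 29.7 CPM in CAIA replicates 1, 2 and 3. In a fit of all 11 libraries, in which both sexes share 1 estimate of the spread, 51 genes passed in females, 48 of them among the 108, and Ttr missed the threshold (adjusted p = 0.111). The 85 others are described below in the order of what their products do. Among them, 27 fell more than 4-fold, 30 fell 2-fold to 4-fold and 28 fell less than 2-fold, with a median log2 fold change of -1.36.

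**Figure D1:**
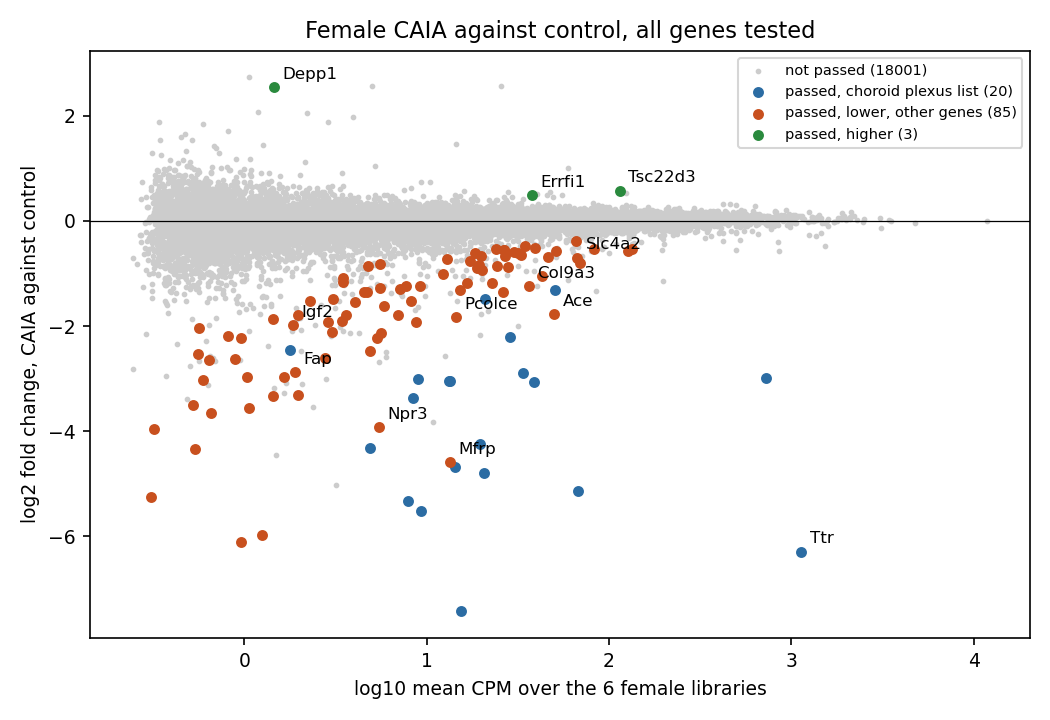
Log2 fold change of CAIA against control (vertical) by log10 mean CPM over the 6 female libraries (horizontal), 1 point for each of 18109 genes tested. Blue points are the 20 choroid plexus markers that passed, orange the 85 other genes that fell, green the 3 genes that rose and grey the genes that did not pass, so that coloured points lie almost all below 0.

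The hormone receptor genes Npr3, Lepr and Prlr and the peptide-processing enzyme gene Ace fell. Npr3, on chromosome 15 (11839896 to 11907287, GRCm38), encodes the receptor that clears natriuretic peptides. It stood at 8.16, 9.56 and 13.1 CPM in controls and 0.780, 0.557 and 0.684 CPM in CAIA, with a wide gap between the groups. The log2 fold change was -3.93 ± 0.24 (SE), a 15.2-fold fall (adjusted p = 0.000119). Ace encodes angiotensin-converting enzyme, which trims angiotensin I to angiotensin II, and was chosen after its values were seen. It went from 66.2, 75.2 and 90.9 CPM in controls to 24.03, 24.8 and 19.2 CPM in CAIA, a 3.41-fold fall (-1.77 ± 0.14, adjusted p = 0.00071). Lepr, the leptin receptor gene, had 6.80, 7.92 and 11.6 CPM in controls and 3.26, 2.54 and 2.77 CPM in CAIA (-1.62 ± 0.22, adjusted p = 0.0075). Lepr and the prolactin receptor gene Prlr, a choroid plexus marker at -2.20 ± 0.28, were the 2 of 12 JAK-STAT genes that passed. Over all genes tested 0.58% fell, and the median of the JAK-STAT list was -0.07. Lepr missed the threshold without CAIA replicate 2 (adjusted p = 0.056) or 3 (0.11). Prlr missed it without control replicate 3 (0.209) or CAIA replicate 1, 2 or 3 (0.226, 0.22 and 0.251), and with no count filter (0.0873). Npr3 passed in each fit without 1 library and with all 11 libraries. Ace passed in each fit without 1 library but not with all 11 (adjusted p = 0.128).

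Transporters and junction proteins of brain barriers fell over a wide range of sizes. Of 26 solute carriers of brain barriers, 5 fell and none rose, where 0.58% of all genes tested fell. Their median log2 fold change was -0.27. All CAIA libraries lay below all controls for 14 of the 26, against 6.06% of all genes tested. With no count filter 8 of them fell, and 3 with all 11 libraries. Slc4a5 and Slc13a4, an ion and a sulfate transporter gene that are also choroid plexus markers, were at -4.69 ± 0.25 and -1.49 ± 0.15. The anion exchanger gene Slc4a2, on chromosome 5 (24423837 to 24440950), was at 75.6, 88.2 and 85.4 CPM in controls and 49.7, 53.5 and 50.3 CPM in CAIA. This is a 1.62-fold fall with no overlap (-0.70 ± 0.08, adjusted p = 0.00235). The copper importer gene Slc31a1, chosen after its values were seen, was at -0.64 ± 0.12 (adjusted p = 0.0406). The lactate exporter gene Slc16a8, which is not on the list, went from 4.04, 4.47 and 6.32 CPM to 1.06, 0.940 and 1.40 CPM (-2.12 ± 0.25, adjusted p = 0.00337). Among tight junction genes, Cldn1 was at 6.96, 6.27 and 13.2 CPM in controls and 1.38, 2.44 and 1.81 CPM in CAIA (-2.23 ± 0.34, adjusted p = 0.0305), with control replicate 3 far above the other controls. Cldn3, a related claudin gene, fell by 3.56 ± 0.58 on the log2 scale from a mean of 1.95 CPM (adjusted p = 0.0274). Slc4a2, Slc4a5, Slc13a4 and Slc16a8 passed in each fit without 1 library. With all 11 libraries Slc4a2 passed, while Slc4a5 (adjusted p = 0.133), Slc13a4 (0.0818), Slc16a8 (0.0697) and Cldn1 (0.53) did not. Slc31a1 missed the threshold without control replicate 2 (adjusted p = 0.0623) or CAIA replicate 1, 2 or 3 (0.271, 0.22 and 0.262), Cldn1 without CAIA replicate 1, 2 or 3 (0.182, 0.0808 and 0.302) and Cldn3 without control replicate 1 (0.0503) or CAIA replicate 1 (0.111) or 3 (0.302).

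Genes of the extracellular matrix and of meningeal fibroblasts also fell. Of 27 collagen and matrix genes, 4 fell (Frem1, Col9a3, Col8a2 and Col1a2), against 0.58% of all genes tested, and none rose. The median of the list was -0.23. The log2 fold change was negative for 25, against 8870 of all 18109 genes tested. In 11 of the 27 all CAIA libraries lay below all controls, against 6.06% of all genes tested. With DESeq2, or with no count filter, 8 of them fell. Pcolce encodes the enhancer of procollagen C-proteinase, which helps collagen to mature, and lies on chromosome 5 (137605103 to 137613784). It was at 18.9, 23.2 and 26.1 CPM in controls and 6.49, 6.51 and 6.16 CPM in CAIA, so that the CAIA libraries were close together and all well below the controls (-1.83 ± 0.13, adjusted p = 0.00028). Col9a3, a chain of the fibril-associated collagen IX, was at 43.8, 56.8 and 51.9 CPM in controls and 20.5, 22.6 and 21.6 CPM in CAIA (-1.23 ± 0.10, adjusted p = 0.000579). Frem1, a basement membrane adhesion gene, had 12.1, 13.4 and 16.2 CPM in controls and 3.51, 4.32 and 3.08 CPM in CAIA (-1.93 ± 0.17, adjusted p = 0.000594). Nid2, which encodes the basement membrane linker nidogen 2 and was chosen after its values were seen, fell 3.45-fold (-1.79 ± 0.17). Col8a2, a chain of collagen VIII, fell by 1.17 ± 0.12 on the log2 scale.

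Of 20 meningeal fibroblast markers, all had a negative log2 fold change, and 4 fell (Fap, Igf2, Pcolce and Col1a2), against 0.58% of all genes tested. All CAIA libraries lay below all controls for 12 of the 20, against 6.06% of all genes tested. The mean level of the list was 2.83, 2.66 and 2.93 log2 CPM in controls and 2.18, 2.14 and 1.99 in CAIA, and its median log2 fold change was -0.50. With DESeq2 8 of them fell, with no count filter 10, and with limma-voom 2. Fap encodes a cell-surface protease of fibroblasts. It was at 3.19, 2.63 and 4.19 CPM in controls and 0.354, 0.453 and 0.548 CPM in CAIA (-2.87 ± 0.29, adjusted p = 0.00141). Col1a2, a chain of collagen I, fell by 0.67 ± 0.11 and missed the threshold without control replicate 2 (adjusted p = 0.0602) or CAIA replicate 1, 2 or 3 (0.16, 0.0825 and 0.239), and with all 11 libraries (0.175). Fap, Frem1, Col9a3, Col8a2, Nid2 and Pcolce passed in each fit without 1 library and with all 11. Levels of the choroid plexus markers, given above, differ between the same libraries, and their part in these falls was not tested.

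**Figure D2:**
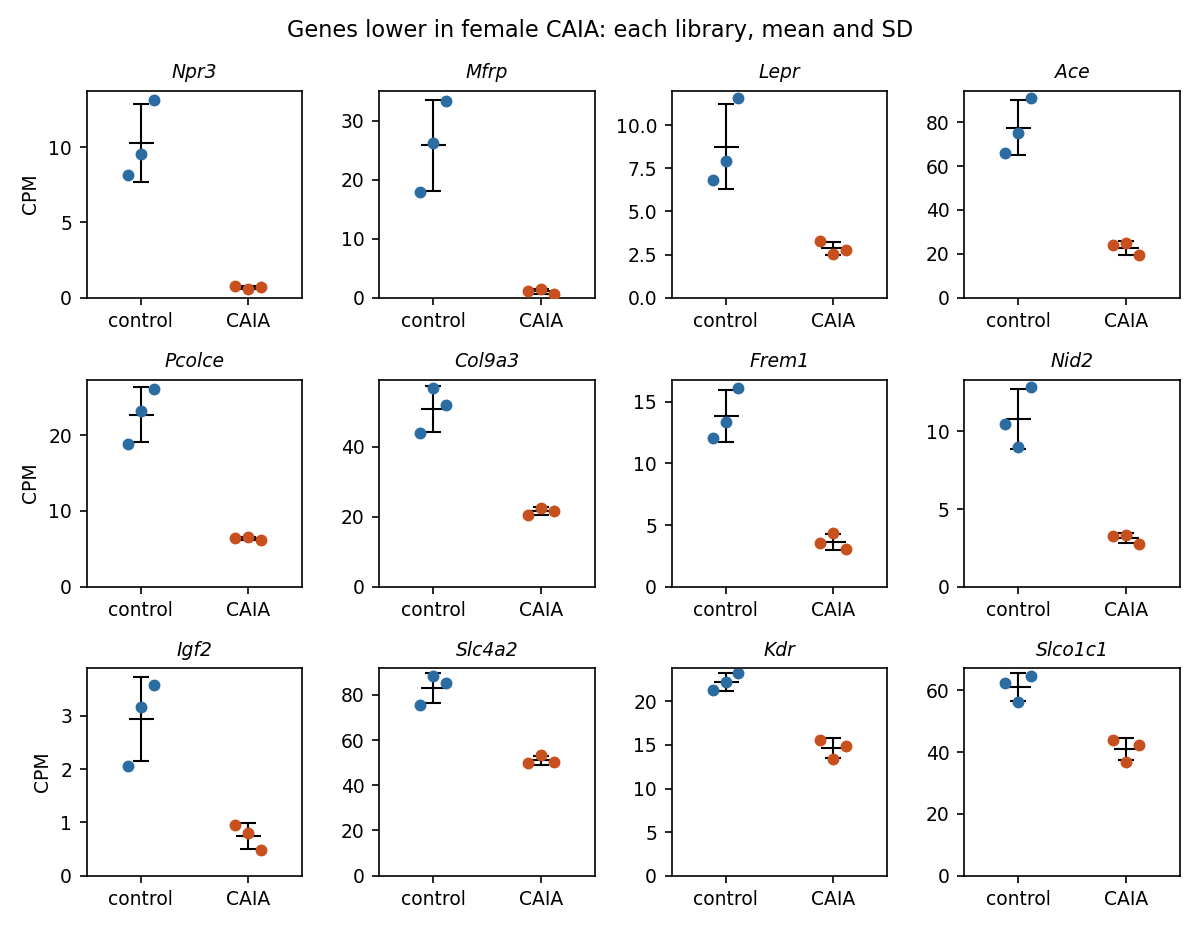
CPM of 12 genes that fell, 1 panel for each gene, in the 3 female control (blue) and 3 female CAIA (orange) libraries, with the mean and SD as black bars and each vertical axis starting at 0. The groups do not overlap in any panel, from Npr3, at 8.16 to 13.1 CPM against 0.557 to 0.780, to Slco1c1, at 56.1 to 64.8 CPM against 36.9 to 44.0.

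Secreted growth factors and their binding proteins fell in part. Igf2, a growth factor gene of meninges and choroid plexus on chromosome 7 (142650766 to 142666816), was at 2.06, 3.17 and 3.58 CPM in controls and 0.957, 0.801 and 0.479 CPM in CAIA (-1.98 ± 0.32, adjusted p = 0.0226). Igfbp2 encodes a binding protein for insulin-like growth factors and is also a choroid plexus marker. It stood at 81.3, 62.3 and 72.3 CPM in controls and 27.3, 29.6 and 29.4 CPM in CAIA, a 2.50-fold fall to an even level (-1.32 ± 0.10, adjusted p = 0.00028). These were the 2 of 13 genes of the insulin-like growth factor system that passed, where 0.58% of all genes tested fell. The median of the list was -0.15. Another binding protein gene, Igfbp4, was at -1.05 ± 0.24 and did not pass (adjusted p = 0.267). Of 27 BMP, TGF-beta and Wnt genes, 2 fell, against 0.58% of all genes tested, and the list median was -0.01. Bmp6, a bone morphogenetic protein gene, had 29.7, 34.4 and 31.4 CPM in controls and 22.4, 21.3 and 21.05 CPM in CAIA (-0.56 ± 0.09, adjusted p = 0.0182). Tgfbi, a matrix protein gene induced by TGF-beta, fell by 1.34 ± 0.16 on the log2 scale. The Wnt antagonist gene Sfrp1 was at -1.39 ± 0.29 and did not pass (adjusted p = 0.159). Igf2 missed the threshold without control replicate 2 (adjusted p = 0.0684) or CAIA replicate 1, 2 or 3 (0.0856, 0.104 and 0.162), Bmp6 without the same libraries (0.0684, 0.102, 0.118 and 0.162) and Tgfbi without CAIA replicate 3 (0.0508). Conversely, Igfbp4 passed without CAIA replicate 1 (0.0259) and Sfrp1 without control replicate 2 (0.0386), and both passed with DESeq2 (0.000186 and 3.35e-05).

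Among 14 endothelial genes, Kdr and Slco1c1 fell, against 0.58% of all genes tested, and none rose. Kdr, the main receptor gene for vascular endothelial growth factor, on chromosome 5 (75932827 to 75978458), was at 21.3, 22.2 and 23.3 CPM in controls and 15.6, 13.4 and 14.9 CPM in CAIA (-0.60 ± 0.10, adjusted p = 0.0224). Slco1c1, a thyroid hormone transporter gene of brain capillaries that the choroid plexus also expresses, was at 62.5, 56.1 and 64.8 CPM in controls and 44.0, 36.9 and 42.2 CPM in CAIA (-0.58 ± 0.09, adjusted p = 0.0183). The other 12 of 14 endothelial markers did not pass, and the median of the list was -0.01. Mfsd2a, a lipid transporter gene of barrier endothelium, was at 0.39 ± 0.10 (adjusted p = 0.257, and 0.0345 with no count filter) with all CAIA libraries above all controls. The mean level of the endothelial list was 5.01, 4.78 and 4.82 log2 CPM in controls and 4.88, 4.84 and 4.84 in CAIA, so that the groups overlapped. Kdr missed the threshold without control replicate 2 (adjusted p = 0.0666) or CAIA replicate 1, 2 or 3 (0.092, 0.134 and 0.16), and Slco1c1 without CAIA replicate 1, 2 or 3 (0.0789, 0.105 and 0.137). With all 11 libraries Kdr did not pass (0.103).

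Several of the largest falls are genes whose products are of other kinds. Absence from the choroid plexus list, which holds 22 genes, does not show that a gene is not expressed there. Mfrp encodes a frizzled-related membrane protein known from the retinal pigment epithelium. It was at 17.96, 26.2 and 33.3 CPM in controls and 1.06, 1.46 and 0.684 CPM in CAIA, a 24.1-fold fall (-4.59 ± 0.32, adjusted p = 0.00141), and its gene model overlaps C1qtnf5 on the same strand. The ferritin receptor gene Scara5 (-2.97 ± 0.48), the methyltransferase gene Inmt (-2.97 ± 0.46), the RNA-binding protein gene Rbm47 (-2.61 ± 0.27) and Wdr86 (-2.12 ± 0.24) fell as well. Gm26684, a transcript on the strand opposite to Enpp2, was at -3.33 ± 0.41. Enpp2, a choroid plexus marker at 912.5 to 1719 CPM in controls and 158.1 to 172.0 CPM in CAIA, fell by 2.98 ± 0.23 on the log2 scale, and reads of this pair cannot be told apart. Cdkn1c, an imprinted inhibitor of the cell cycle chosen after its values were seen, had 10.8, 11.1 and 14.5 CPM in controls and 4.32, 4.67 and 3.66 CPM in CAIA (-1.53 ± 0.16, adjusted p = 0.00154). Mfrp, Rbm47 and Cdkn1c passed in each fit without 1 library. With all 11 libraries Rbm47 and Cdkn1c passed, while Mfrp (adjusted p = 0.121), Gm26684 (0.133), Enpp2 (0.103) and Scara5 (0.292) did not. Scara5 missed the threshold without control replicate 2 (adjusted p = 0.0577) or CAIA replicate 2 or 3 (0.204 and 0.2), Inmt without CAIA replicate 1, 2 or 3 (0.131, 0.0846 and 0.194), Wdr86 without CAIA replicate 3 (0.055) and Gm26684 without CAIA replicate 3 (0.0747).

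The 5 male libraries, 2 controls and 3 CAIA, share no sample with the female ones and give the same 85 genes a separate measurement. None of the 85 passed in males, in the fit of all 11 libraries, and neither did any of the 18109 genes tested in females. Their male log2 fold changes had a median of -0.89 and were negative in 84 of 85, against 50.2% of all genes tested. All male CAIA libraries lay below both male controls for 62 of the 85 genes (72.9%), against 8.27% of all genes tested. As a share of the female control mean, the median of the 85 genes was 87.5%, 97.7% and 113.7% in the female controls and 40.4%, 40.7% and 33.7% in female CAIA. In males it was 86.7% and 97.7% in control replicates 1 and 3 and 35.9%, 70.6% and 41.6% in CAIA replicates 1, 2 and 3. Male CAIA replicate 2 thus lost the least, and it was the highest of the male CAIA libraries for 83 of the 85 genes (97.6%), against 33.5% of all genes tested. Ttr had the same order within male CAIA, at 65.6, 1188 and 304.7 CPM, but not in the male controls, at 2704 and 2577 CPM. The 20 choroid plexus markers that fell had medians of 7.89%, 51.1% and 15.6% in male CAIA replicates 1, 2 and 3. Their part in the falls of the 85 genes was not tested.

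**Figure D3:**
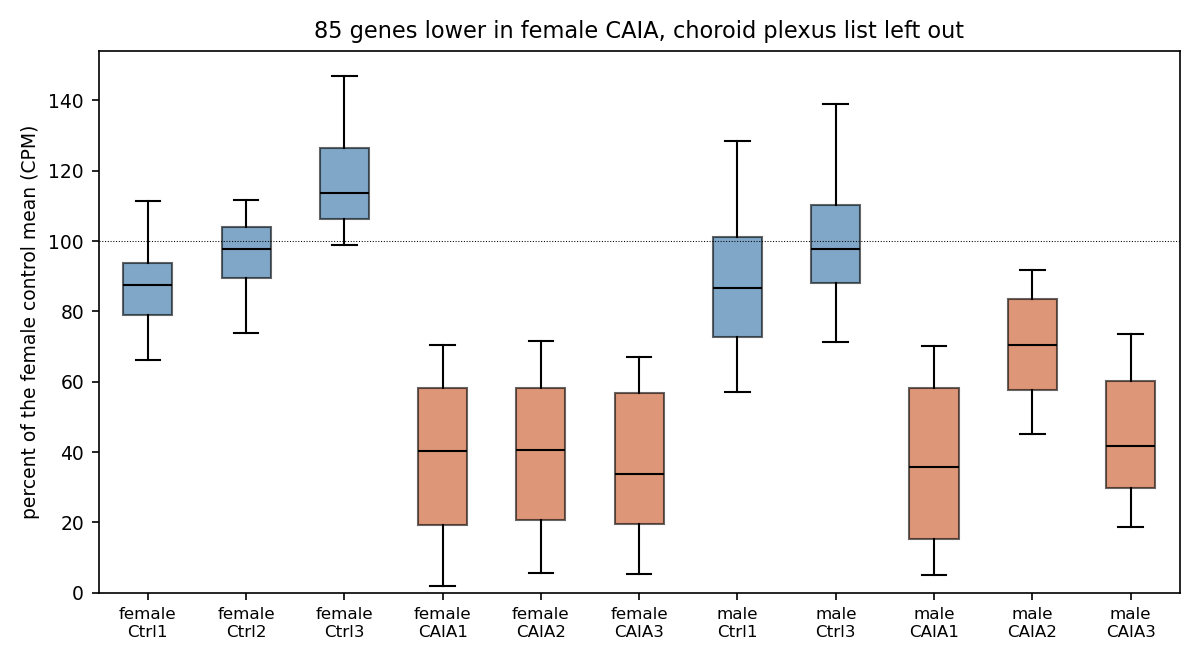
Level of the 85 genes that fell in females and are not on the choroid plexus list, as percent of the female control mean (vertical), in each of the 11 libraries (horizontal), with control in blue and CAIA in orange. Boxes span the quartiles with the median as a line and whiskers from the 5th to the 95th percentile, and the medians of CAIA lie at 33.7% to 41.6% in 5 libraries and at 70.6% in male CAIA replicate 2.

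For the remaining 23 of the 85 genes at least 1 male CAIA library was not below both male controls. Trpm3 was the 1 gene of the 85 whose male log2 fold change was positive, at 0.01, with control replicate 1 the lowest of the male libraries. This cation channel gene, chosen after its values were seen, was at 146.8, 157.2 and 169.4 CPM in female controls and 116.9, 111.8 and 97.0 CPM in female CAIA (-0.54 ± 0.09, adjusted p = 0.0249). Kdr and A2m, a protease inhibitor gene chosen after its values were seen, were the 2 genes for which male CAIA replicate 2 was not the highest. Kdr was at 19.4 and 17.2 CPM in male controls and 17.3, 11.2 and 14.1 CPM in male CAIA, groups that overlap. A2m fell in females by 0.86 ± 0.11 on the log2 scale (adjusted p = 0.00679). A test of the difference between the female and the male effect called none of 19619 genes with edgeR (0% of genes tested). In that test 807 genes had an unadjusted p below 0.05 and the smallest adjusted p was 0.978, while DESeq2 called 2 and limma-voom 0. Trpm3 missed the threshold in females without control replicate 2 (adjusted p = 0.0636) or CAIA replicate 1, 2 or 3 (0.0873, 0.118 and 0.162), and A2m without CAIA replicate 1 (0.0789) or 3 (0.0944). In the female contrast of the fit of all 11 libraries neither passed (adjusted p = 1.00 for Trpm3 and 0.0848 for A2m).

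The 3 genes that rose were Depp1, Tsc22d3 and Errfi1. Depp1 encodes a protein that regulates autophagy and is a known target of FOXO transcription factors. It was at 0.622, 0.392 and 0.270 CPM in controls and 1.81, 1.99 and 3.66 CPM in CAIA, a 5.82-fold rise in a low transcript (2.54 ± 0.40, adjusted p = 0.0189). In male libraries, whose CPM are scaled over all 11 libraries, it stood at 0.677 and 0.434 CPM in controls and 0.552, 1.57 and 1.44 CPM in CAIA. Its gene lies on chromosome 6 (116650609 to 116652794) and overlaps Rassf4 on the opposite strand. Rassf4 was at 12.6, 12.9 and 15.9 CPM in controls and 15.5, 21.1 and 12.5 CPM in CAIA (0.24 ± 0.19). The part of Rassf4 reads in the Depp1 counts was not tested. Of 18 tested FOXO target genes, Depp1 alone passed, where 0.0166% of all genes tested rose. The median of the list was 0.10. Cited2 and Pdk4, 2 other members, were at 0.23 ± 0.07 and 0.38 ± 0.16 and did not pass. Depp1 missed the threshold without control replicate 2 (adjusted p = 0.0808) or CAIA replicate 1 (0.0502) or 3 (0.138), and with limma-voom (0.071).

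The bases just before the start of Depp1 are shown because it had the largest rise of the 3 and FOXO factors bind forkhead letters such as GTAAACA. The window is 175 bases at chr6:116650434-116650608 on the plus strand (RefSeq, GRCm38.p6), written 5′ to 3′ with the letters GTAAATA in capitals.
Depp1: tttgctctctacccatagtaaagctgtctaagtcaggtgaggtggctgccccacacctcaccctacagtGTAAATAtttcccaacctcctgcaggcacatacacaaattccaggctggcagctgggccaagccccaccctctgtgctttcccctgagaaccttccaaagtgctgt
GTAAACA, searched on both strands, is not in this window, and 2.31% of 32851 promoter windows of the same length hold it. GTAAATA, a related run of letters that was searched only after the window had been read, occurs 1 time, and 2.05% of the windows hold it. A match of letters shows no binding.

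Tsc22d3 and Errfi1 are responsive to glucocorticoids, the adrenal hormones of stress and inflammation. Tsc22d3 encodes the glucocorticoid-induced leucine zipper protein GILZ and lies on chromosome X (140539528 to 140600659). It was at 102.9, 89.2 and 85.5 CPM in controls and 131.8, 141.9 and 139.2 CPM in CAIA, a 1.49-fold rise (0.57 ± 0.08, adjusted p = 0.0115). Errfi1 encodes a feedback inhibitor of epidermal growth factor receptors and lies on chromosome 4 (150853919 to 150868892). It was at 30.1, 33.0 and 31.0 CPM in controls and 41.8, 47.8 and 42.7 CPM in CAIA, a 1.41-fold rise with no overlap (0.49 ± 0.08, adjusted p = 0.0274). In males the groups overlapped for Tsc22d3, at 88.0 and 116.8 CPM in controls and 86.9, 138.5 and 136.9 CPM in CAIA. They also overlapped for Errfi1, at 25.7 and 34.3 CPM in controls and 32.2, 38.4 and 33.7 CPM in CAIA. Tsc22d3 passed in 3 of 6 fits without 1 library and Errfi1 in 1 of 6. In those that missed the threshold, the log2 fold change was 0.55 to 0.61 for Tsc22d3 and 0.43 to 0.53 for Errfi1. Tsc22d3 missed the threshold without CAIA replicate 1, 2 or 3 (adjusted p = 0.0684, 0.086 and 0.117). Errfi1 missed it without control replicate 1 or 2 (0.0779 and 0.054) or CAIA replicate 1, 2 or 3 (0.103, 0.185 and 0.162). With all 11 libraries neither passed (0.339 for Tsc22d3 and 0.103 for Errfi1).

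All 19 glucocorticoid response genes had a positive log2 fold change, where 51% of all genes tested did. In 6 of the 19 all CAIA libraries lay above all controls, against 5.41% of all genes tested. The median was 0.33, and 2 of the 19 passed, where 0.0166% of all genes tested rose. DESeq2 called 6, edgeR with no count filter 7 and the fit of all 11 libraries 0. The mean level of the list was 4.92, 4.75 and 4.78 log2 CPM in controls and 5.11, 5.29 and 5.05 in CAIA, with each CAIA library above each control. Nfkbia, the inhibitor of NF-kB, was at 23.9, 21.6 and 22.3 CPM in controls and 28.2, 40.0 and 31.7 CPM in CAIA (0.56 ± 0.12, adjusted p = 0.135). Ddit4, an inhibitor of mTOR signalling, was at 0.48 ± 0.11 and Arrdc2 at 0.56 ± 0.14, and neither passed (adjusted p = 0.161 and 0.252). DESeq2 called Nfkbia (adjusted p = 0.0106), Ddit4 (0.0205), Arrdc2 (0.0472) and Sgk1, a kinase gene chosen after its values were seen (0.0353), all higher. In males the level, scaled over all 11 libraries, was 4.54 and 4.94 log2 CPM in controls and 4.67, 5.46 and 5.09 in CAIA, so that the groups overlapped and CAIA replicate 2 was the highest.

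**Figure D4:**
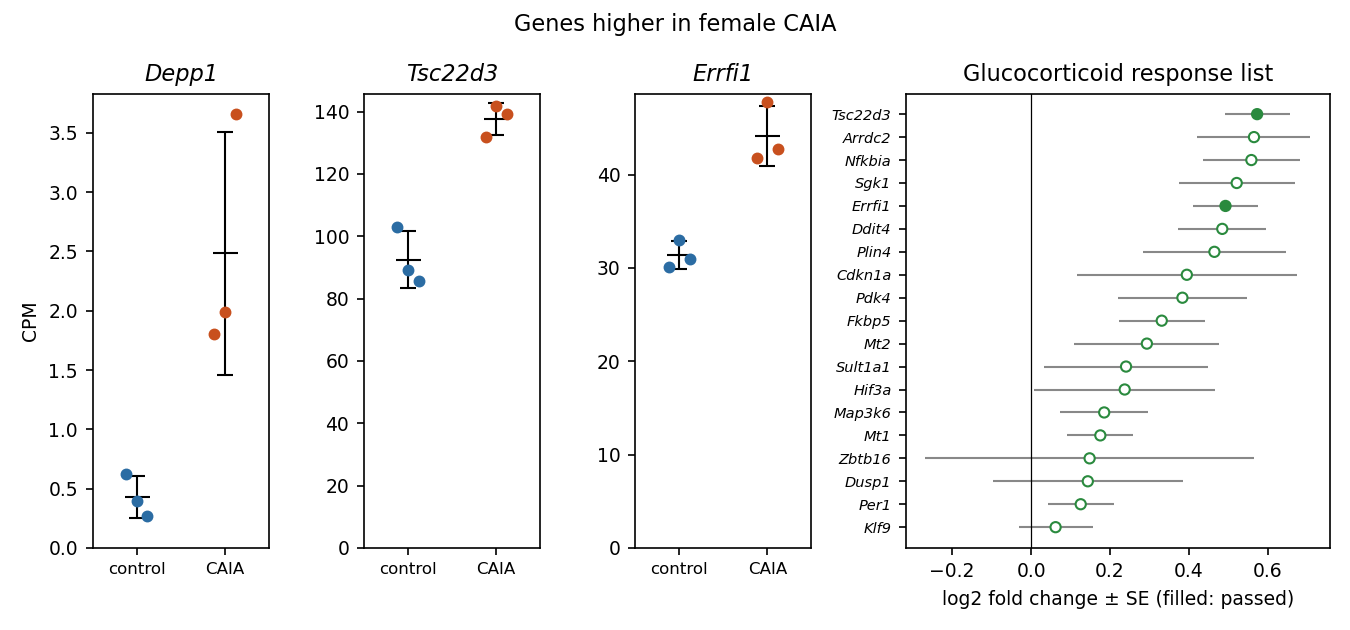
Left, CPM of Depp1, Tsc22d3 and Errfi1 in the 3 female control (blue) and 3 female CAIA (orange) libraries, with mean and SD. Right, log2 fold change with SE of the 19 glucocorticoid response genes, filled where the gene passed, from 0.06 to 0.57 and all above 0.

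In 8 immune lists, 93 genes were tested with edgeR, of which 1 fell and none rose, while 12 lower and 2 higher genes had an unadjusted p below 0.05. Over all 18109 genes tested, 0.58% fell, 1008 had an unadjusted p below 0.05 and 8870 had a negative log2 fold change. The gene that fell, Cd74, encodes a chaperone of MHC class II molecules. It was at 4.67, 5.05 and 4.39 CPM in controls and 2.02, 2.403 and 2.19 CPM in CAIA, a 2.13-fold fall (-1.09 ± 0.18, adjusted p = 0.0224). It was the 1 of 6 tested MHC class II genes that passed, and 5 of the 6 were negative, with a median of -0.33. None of 20 tested type I interferon response genes passed, with 16 negative and a median of -0.19. Among them Ifi27 was at 19.4, 21.4 and 27.9 CPM in controls and 12.7, 16.1 and 14.7 CPM in CAIA (-0.66 ± 0.15, adjusted p = 0.139). None of the 10 tested LPS-responsive vascular genes passed (median -0.07), including the adhesion molecule genes Icam1 at -0.55 ± 0.22 and Vcam1 at -0.27 ± 0.12. Of 21 NF-kB and cytokine genes, 9 had enough counts to be tested, none passed and the median was 0.02. Complement, MHC class I and reactive astrocyte genes had no member that passed and medians of -0.02, -0.11 and -0.09. All 8 tested markers of border-associated macrophages were positive without passing (median 0.34), against 51% positive among all genes tested. They include Lyve1 at 0.47 ± 0.25 and Mrc1 at 0.35 ± 0.19. Cd74 missed the threshold without control replicate 2 (adjusted p = 0.0876) or CAIA replicate 1, 2 or 3 (0.164, 0.0825 and 0.162), and Ifi27 passed without control replicate 1 (0.0476). With all 11 libraries Cd74 did not pass (0.0889). DESeq2 called Nfkbia, which is also on the NF-kB list, higher (adjusted p = 0.0106) and Ifi27 lower (0.00484), and limma-voom called neither. EdgeR with no count filter called both, and it called the complement gene C1s1, chosen after its values were seen, and the reactive astrocyte gene Steap4 lower (0.0309 and 0.0026). Serpina3n, a reactive astrocyte gene chosen after its values were seen, was at 0.33 with all libraries and passed, at 0.76, without control replicate 3 (0.00754).

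None of the 9 lateral habenula, 16 medial habenula or 13 thalamus markers passed with edgeR, DESeq2 or limma-voom. Against 1008 of 18109 genes tested with edgeR, 0 of these markers had an unadjusted p below 0.05 in any of these fits. In edgeR with no count filter none passed, but 8 of 37 had an unadjusted p below 0.05, all higher. In that fit 1975 of all 32957 genes had an unadjusted p below 0.05. In the main fit, 7 of 9 lateral habenula, 15 of 16 medial habenula and 12 of 13 thalamus markers were positive, against 51% of all genes tested. The list medians were 0.11, 0.14 and 0.14, and that of the thalamus markers was -0.075 without control replicate 3. Of medial habenula markers, the neuropeptide gene Tac1 passed without control replicate 3 (0.59 ± 0.10, adjusted p = 0.0171). The choline transporter gene Slc5a7, chosen after its values were seen, passed without both libraries of highest pineal marker level (0.48 ± 0.08, adjusted p = 0.0303). The immediate early gene Fos, induced when neurons fire, was at 34.2, 35.5 and 33.8 CPM in controls and 37.99, 37.93 and 42.1 CPM in CAIA. Each CAIA library lay above each control by a small margin (0.19 ± 0.08), which did not pass (adjusted p = 0.832). The 18 immediate early genes together had a median of -0.21, which was 0.035 without control replicate 1, with a list level of 4.81, 3.84 and 3.997 log2 CPM in controls and 4.08, 3.78 and 3.94 in CAIA. Control replicate 1, the highest, also had the highest level of hippocampus and cortex markers, and their part in that median was not tested. Camk2b, a calcium/calmodulin kinase gene, was at 686.9, 651.6 and 558.4 CPM in controls and 679.1, 612.0 and 606.8 CPM in CAIA, with a log2 fold change of 0.00 ± 0.10 whose sign changed with the size factors. Kcnj10, the gene of the astrocytic potassium channel Kir4.1, was at 0.14 ± 0.09 (adjusted p = 0.928). A missed threshold does not show equal levels.

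None of 80 tested genes on the lists of monoamine and opioid receptors, GABA receptors, glutamate receptors and potassium channels passed with edgeR, DESeq2 or limma-voom. Of the 80, 5 had an unadjusted edgeR p below 0.05, all higher, against 1008 of all 18109 genes tested. With no count filter 9 higher and 1 lower did, against 1975 of all 32957 genes. Of 19 monoamine and opioid receptor genes, 16 were positive, against 51% of all genes tested, and the median was 0.10. In 5 of the 19 all CAIA libraries lay above all controls, against 5.41% of all genes tested. The kappa opioid receptor gene Oprk1 had 5.99, 6.62 and 6.76 CPM in controls and 10.7, 12.3 and 6.78 CPM in CAIA (0.62 ± 0.20, adjusted p = 0.587, and 0.0108 with no count filter), and the serotonin receptor gene Htr1b was at 0.44 ± 0.15 (adjusted p = 0.665). GABA, glutamate and potassium channel genes had medians of 0.06, -0.00 and -0.04, with 16 of 19, 10 of 22 and 7 of 20 positive. Of 15 astrocyte markers, 8 were positive and 7 negative, with a median of 0.00. All CAIA libraries lay above all controls for 4 of them and below for 1, against 5.41% and 6.06% of all genes tested. The 4 include the connexin genes Gjb6 and Gja1, at 0.31 ± 0.09 and 0.25 ± 0.08, and Gjb6 passed with no count filter (adjusted p = 0.03). The synapse-organizing gene Cbln1, at 70.8, 70.0 and 76.6 CPM in controls and 90.0, 93.8 and 92.5 CPM in CAIA, came closest to passing among genes that were higher (0.35 ± 0.07, adjusted p = 0.0621). Cbln1 passed without control replicate 3 (adjusted p = 0.0159) and with DESeq2 (0.00844). Oligodendrocyte and microglia markers had medians of 0.03 and 0.02.

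**Figure D5:**
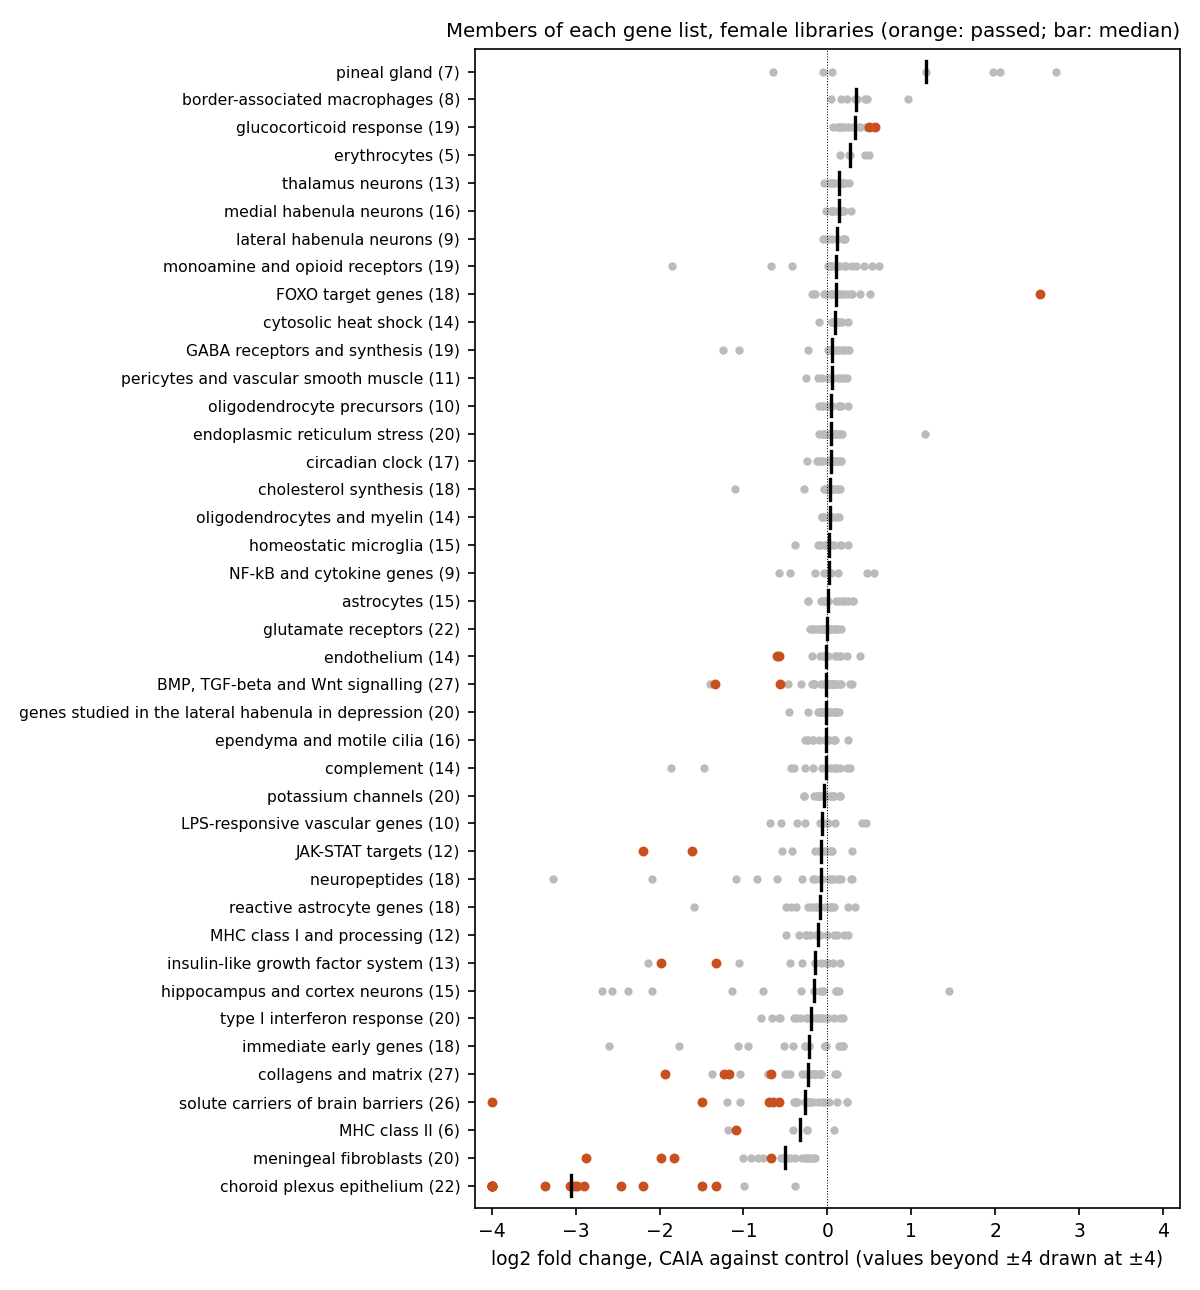
Log2 fold change of each tested member (points) of each gene list (rows, with the number of members tested), CAIA against control in females, with values beyond 4 drawn at the edge. Orange points passed and black bars are list medians, which run from -3.06 for choroid plexus markers and -0.50 for meningeal fibroblast markers to 0.33 for glucocorticoid response genes, 0.34 for border-associated macrophage markers and 1.18 for pineal markers, a median that was -0.032 without CAIA replicate 2.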

How the data were processed

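Gene-level read counts were used as the authors deposited them, whole numbers with no normalization. The submitters' processing notes name the tools cutadapt (version 1.9.1), HISAT2 (version 2.0.5) and featureCounts (version 1.5.0-p3) and the build GRCm38. The sources used here do not give the annotation release or the strand setting. Coordinates came from GENCODE M21, to which 54495 of 54532 identifiers matched. Groups came from the sample titles.

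Genes were filtered with filterByExpr, scaled with TMM factors and tested with edgeR 4.0.16 (glmQLFit with robust estimation, glmQLFTest, two-sided) in R 4.3.3 on the 6 female libraries alone, with 4 residual degrees of freedom. Benjamini-Hochberg adjustment covered all 18109 genes that entered this test, and genes with an adjusted p below 0.05 are said to pass. A standard error is the size of the log2 fold change over the root of F. CPM use TMM-scaled library sizes, over the 6 female libraries for female values, and over all 11 for male values and for levels as percent of the female control mean. List levels are means of log2 CPM over tested members, with 0.5 CPM added where all 11 libraries are compared. The difference between the sexes was tested in a fit of all 11 libraries in 4 groups (19619 genes). No 2 libraries of a group agreed within sampling noise. The test was checked on simulated counts.

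The genes, the 42 gene lists and the rule for named genes were chosen with earlier results of these data known, so lists are described by counts and medians and not tested. The rule required a mean of 1 CPM or more and took those that passed, outside the choroid plexus list, with the 15 largest rises or falls, filled to 10 by lowest p, the 3 members of lowest p in each list, and Ttr, Depp1, Fos, Camk2b and Kcnj10. Calml4, Otx2, Col1a2, Enpp2 and Rassf4 are named outside it, as are the genes marked so in the text. Tried as alternatives were DESeq2 1.42.0, limma-voom (limma 3.58.1), other size factors and filters, a threshold of 0.1, a fit of all 11 libraries, a replicate block, each library left out, and both libraries of highest pineal level left out, the last chosen after seeing the data. Blood leukocyte markers had no member with enough counts. Figures were drawn with matplotlib 3.10.9.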

Additional observations from a re-analysis of the deposited data

How the results depend on the processing

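None of the 108 genes that passed changed sign under any of 16 alternatives. Since the groups of all 108 do not overlap, a fit without some of the libraries could hardly change a sign. Of the 108, 33 passed in every fit without 1 library (15 choroid plexus markers and 18 others), and 15 passed under every alternative. The count of 108 (105 lower, 3 higher) became 190 with DESeq2 (180 and 10), 312 with no count filter (285 and 27) and 51 in the fit of all 11 libraries (50 and 1, of which 48 were among the 108 genes). With 1 library left out, the total ran from 35 to 145, the lower genes from 35 to 126 and the higher genes from 0 to 19. It was 46, 60 and 35 without CAIA replicates 1, 2 and 3, and the 19 higher genes came without control replicate 3. Genes with no overlap between groups numbered 1655 to 2531 lower and 1681 to 2791 higher without 1 library, where fewer libraries are compared. Without both libraries of highest pineal level, 102 genes passed (91 lower, 11 higher), of which 71 were among the 108. Limma-voom called 78 (76 lower, 2 higher), of which 77 were among the 108. With the replicate number as a block, 63 genes passed, 63 lower and 0 higher, of which 60 were among the 108. Deviations of same-numbered libraries had correlations of 0.08, -0.06 and -0.12, and those of differently numbered libraries ran from -0.09 to 0.13. With 3 libraries in each group, these values cannot show whether the numbers pair the samples. DESeq2 called 2 genes for the difference between the sexes, and the other alternatives run for it called 0. Camk2b, at 0.00, turned to -0.0022 with RLE size factors and with DESeq2, to -0.013 with upper-quartile size factors, to -0.0089 with at least 1 CPM in 3 libraries, to -0.059 without both libraries of highest pineal level, and ran from -0.085 to 0.067 without 1 library. Of 656 list medians recomputed, 624 stayed within 1 replicate SD and 32 moved by more. The sign changed in 56, over 20 of 41 lists. Of lists with a median 0.1 or more from 0, 3 changed sign. The pineal median, 1.18, became -0.032 without CAIA replicate 2 and -0.17 without both libraries of highest pineal level. The thalamus median, 0.14, became -0.075 without control replicate 3 and -0.0033 without both those libraries. The immediate early gene median, -0.21, became 0.035 without control replicate 1. The causes of these changes were not tested.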
